A study of Homo sapiens with 6 samples.

Results

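The 48 genes described here encode the machinery that copies DNA in S phase, with the enzymes that supply its building blocks and the E2F factors that control many of these genes. They were taken as a fixed list of gene symbols, and for each symbol the deposited RefSeq transcript rows were summed. All 48 had rows among the 23539 genes of the count table (83 rows, from 1 to 4 per gene), and all 48 passed the filter on low counts among 15288 genes tested. The cells were primary human dermal fibroblasts of a single line (GM03348, Coriell Institute), and polyadenylated RNA was sequenced in 3 groups of 2 libraries each. The untreated group is labelled as expressing no introduced gene, and the labels do not say whether these cells were transduced, selected or given doxycycline, nor when they were harvested. The WT-MyoD group carried a Tet-ON lentivirus encoding mouse wild-type MyoD, the master regulator of skeletal muscle identity, which can drive fibroblasts toward a muscle fate, co-expressed with dsRed-Express2 through a T2A peptide. The VP64-MyoD group carried the same vector with the viral activation domain VP64 joined to the N-terminus of mouse MyoD. Per the labels' protocols, transduced cells were selected in 1 µg/mL puromycin, grown to confluence, induced with 3 µg/mL doxycycline and harvested at day 10. The series describes its libraries as biological duplicates. As all cells came from 1 line, the p-values reflect differences between cultures and not between donors.

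Replication starts in G1, when the origin recognition complex, CDC6 and CDT1 load the ring-shaped MCM helicase onto origins. In S phase the kinase CDC7 and the cyclin-dependent kinases turn the loaded ring into the active CMG helicase (CDC45, MCM2 to MCM7 and the GINS complex). Polymerase alpha with primase then starts each strand, polymerases delta and epsilon extend it on the PCNA clamp, and FEN1 and LIG1 join the lagging-strand fragments. Genes for many of these proteins are repressed by pocket proteins in resting cells and activated by E2F factors on the way into S phase. In muscle differentiation, myoblasts leave the cell cycle, and their replication genes are known to be shut down as myotubes form.

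E2F factors bind short GC-rich sites close to the start of many replication genes, so promoter stretches are shown for members that rose in both MyoD groups, that were called differently from most, or that did not pass the test. They were taken from RefSeq (GRCh38.p14), are written 5′ to 3′ on the strand of the gene, and end 1 base before the start unless stated. Capitals mark any of the E2F letters TTTCCCGC, TTTCGCGC, TTTGCCGC or TTTGGCGC on either strand, except for RRM2, where they mark CCAAT, the core of the NF-Y site.
E2F1, chr20:33686386-33686485, minus strand: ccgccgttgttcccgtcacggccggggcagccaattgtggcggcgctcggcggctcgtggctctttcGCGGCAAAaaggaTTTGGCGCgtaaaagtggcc
E2F2, chr1:23531234-23531333, minus strand: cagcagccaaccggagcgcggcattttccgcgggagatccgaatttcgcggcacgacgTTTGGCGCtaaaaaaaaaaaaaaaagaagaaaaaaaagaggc
CDT1, chr16:88803689-88803788, plus strand: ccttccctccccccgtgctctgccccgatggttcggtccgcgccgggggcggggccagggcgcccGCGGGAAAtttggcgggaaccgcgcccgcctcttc
GINS2, chr16:85688955-85689054, minus strand: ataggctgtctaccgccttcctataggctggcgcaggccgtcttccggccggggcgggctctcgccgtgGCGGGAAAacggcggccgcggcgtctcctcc
MCM6, chr2:135876504-135876603, minus strand: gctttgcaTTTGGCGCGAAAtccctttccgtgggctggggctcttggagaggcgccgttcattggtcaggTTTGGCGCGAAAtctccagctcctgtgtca
POLE, chr12:132687343-132687442, minus strand: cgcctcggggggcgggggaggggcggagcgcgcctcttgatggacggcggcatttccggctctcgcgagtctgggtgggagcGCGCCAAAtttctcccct
DUT, chr15:48332097-48332196, plus strand: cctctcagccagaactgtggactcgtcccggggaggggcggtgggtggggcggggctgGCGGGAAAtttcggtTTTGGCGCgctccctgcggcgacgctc
RRM2, chr2:10122609-10122708, plus strand: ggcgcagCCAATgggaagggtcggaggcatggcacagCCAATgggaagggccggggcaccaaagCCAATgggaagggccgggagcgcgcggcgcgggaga
The MCM6 stretch runs from 160 to 61 bases before the start and holds 4 matches in 2 overlapping pairs. The RRM2 stretch runs from 130 to 31 bases before the start and holds 3 CCAAT letters in a repeated block. The E2F1 and DUT stretches each hold 2 E2F matches. Where a gene had more than 1 annotated start, the stretch shown is from the start with the most matches nearby. DUT had 4 starts, of which 1 had E2F letters nearby, and RRM2 had 2, both with CCAAT nearby.

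Of the 48 members, 43 had a RefSeq promoter entry, with 59 windows of 300 bases (250 before to 50 after the start) for their alternative starts. MCM4, MCM5, GINS4, POLD3 and E2F8 had none. The E2F letters occurred in 26 of the 59 member windows (44.1%) and in 1164 of 35116 windows of all genes (3.31%). Counted by gene, 25 of the 43 members (58.1%) held them, against 3.99% of 27305 genes. The CCAAT letters occurred in 52.5% of the member windows and 34.6% of all windows. The letters TTTGAA, the core of the cell cycle homology region, occurred in 3 of the 59 member windows (5.08%) and in 15.2% of all windows. The E-box CAGCTG, which MyoD can bind, occurred in 13.6% of the member windows and 17.9% of all windows. All letters were searched on both strands, E2F matches could overlap each other as in MCM6, each window was counted once per motif, and a match describes the sequence only.

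The replication genes rose in fibroblasts given WT-MyoD and, to a smaller extent, in those given VP64-MyoD. Summed over the 48 members, the level was 564 and 556 CPM in the untreated libraries, 1237 and 1240 CPM with WT-MyoD, and 940 and 965 CPM with VP64-MyoD, where CPM is counts per 1000000 library counts after TMM scaling. The 3 groups did not overlap in this sum. With WT-MyoD, 44 members were higher than untreated at an adjusted p under 0.05 in edgeR's quasi-likelihood test, and 0 were lower, against 26.0% higher and 22.6% lower (48.6% called) among all genes tested. The 2 WT-MyoD libraries both lay above the 2 untreated ones for 47 members and both below for 0, against 36.4% and 35.4% of all genes. The median log2 fold change was 1.46 over the members and 0 over all genes, and 32 members rose over 2-fold, against 11.6% of all genes. POLD3, RFC4, DUT and TIPIN did not pass the test. The cells of a culture were lysed together, so more cells in S phase and more of these RNAs per cell cannot be told apart. Transduction, selection, doxycycline and harvest day are given for the MyoD groups only. Their part in the rise of either MyoD group over untreated cannot be told apart from that of MyoD.

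With VP64-MyoD, 43 members were higher than untreated and 3 (PRIM2, POLE and POLD3) were lower by edgeR, against 33.3% higher and 30.3% lower (63.6% called) among all genes tested. The VP64-MyoD libraries did not overlap the untreated ones and were higher for 45 members and lower for 3, against 43.3% and 40.2% of all genes. The median log2 fold change of the members was 1.26, against 0.03 for all genes, and 26 members rose over 2-fold, against 12.8% of all genes. POLD1 and DUT did not pass. The number of members called lower was 1 when either VP64-MyoD library was left out. Both comparisons use the same untreated libraries. A total of 41 members were called higher in both MyoD groups, as were 17.8% of all genes.

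**Figure D1:**
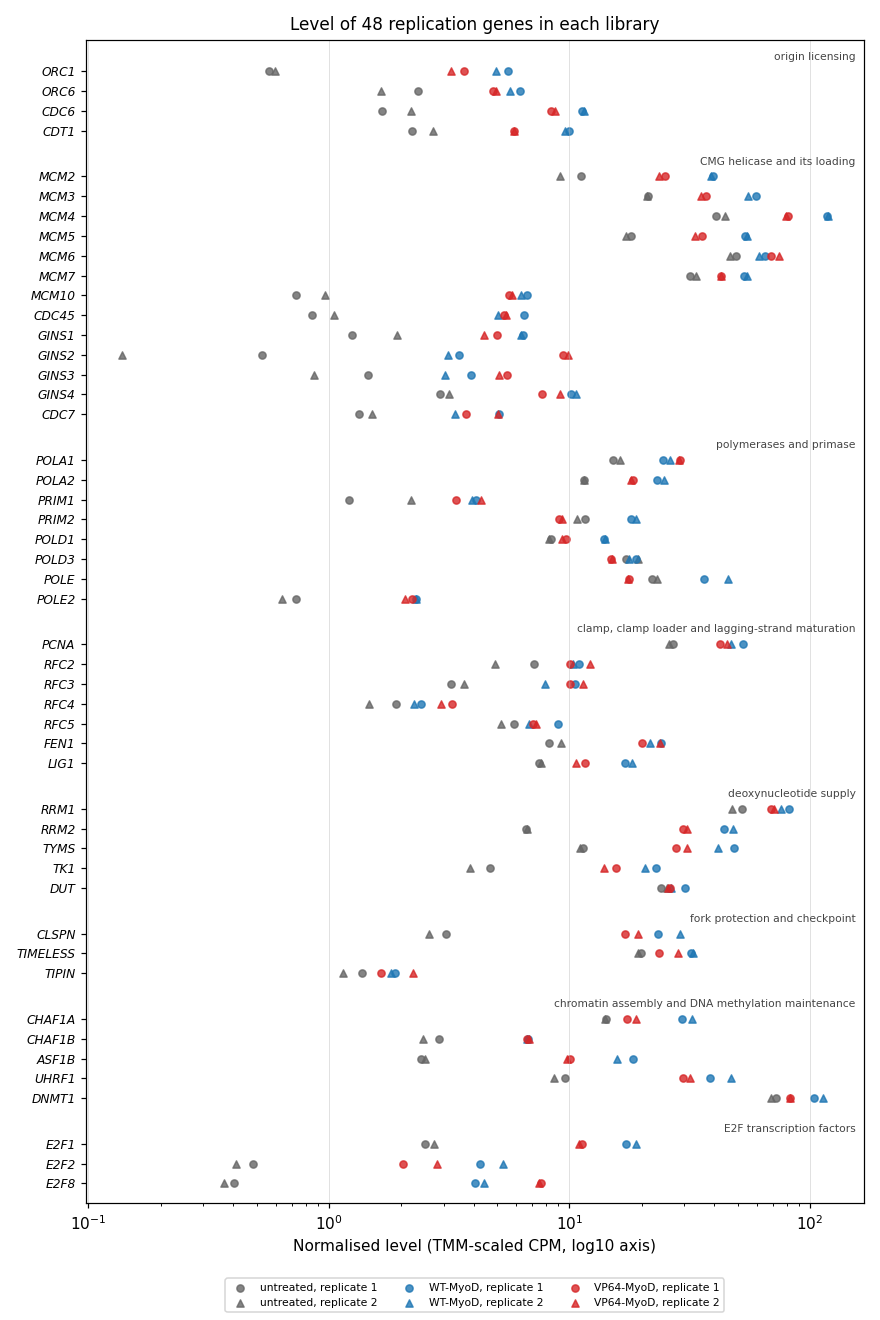
Level of each of the 48 replication genes in each of the 6 libraries, in TMM-scaled CPM on a log10 axis, grouped by role. Grey, blue and red mark untreated, WT-MyoD and VP64-MyoD, and circles and triangles mark replicates 1 and 2. Most blue points lie to the right of the red ones and both to the right of grey; GINS2, GINS3, MCM6, E2F8, POLA1 and RFC4 have both red points farthest right, and the VP64-MyoD points of POLE, PRIM2 and POLD3 lie left of grey.

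In the direct comparison, 29 members were lower with VP64-MyoD than WT-MyoD, 4 were higher (MCM6, GINS2, GINS3 and E2F8) and 15 did not pass, against 28.4% lower and 28.7% higher (57.2% called) among all genes tested. Without overlap between the MyoD groups, 33 members were lower and 6 higher, against 38.4% and 40.1% of all genes. The median log2 difference was -0.33 over the members and 0.02 over all genes. PRIM2 and POLE were more than 2-fold below their WT-MyoD level, as were 1040 of the 15288 genes tested. GINS2 alone of the members was over 2-fold above its WT-MyoD level, as were 7.63% of all genes. Matched by replicate number, the median member difference between VP64-MyoD and WT-MyoD was -0.35 for replicate 1, with 6 of 48 members above 0. For replicate 2 it was -0.29, with 15 above 0. Replicate numbers did not pair the libraries, so this matching is arbitrary, and these counts were not taken over all genes. The sequence higher with WT-MyoD, higher with VP64-MyoD and lower with VP64-MyoD than WT-MyoD held for 25 members, and for 4.28% of all genes. The counts of the direct comparison moved when a library was left out: 2 members were called higher without VP64-MyoD replicate 1.

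Transgene RNA, muscle genes and some cell cycle inhibitors differed between the same groups. Reads of the mouse MyoD transgene gave 762 and 1021 CPM with WT-MyoD, 116 and 97.2 CPM with VP64-MyoD, and 5.13 and 1.05 CPM in untreated libraries, and were lower with VP64-MyoD than WT-MyoD (log2 -3.06 ± 0.24 SE, adjusted p 3.4e-08). The summed level of 9 skeletal muscle markers was 5.58 to 7.06 CPM in untreated libraries, 912 to 1002 CPM with WT-MyoD and 4122 to 4712 CPM with VP64-MyoD, and that of 10 fibroblast markers 43710 to 46130, 29950 to 34160 and 31410 to 33990 CPM. The fibroblast sum rests mostly on COL1A1, COL1A2 and COL3A1. Of its 10 genes, 4 were higher and 4 lower with WT-MyoD (median log2 -0.04), against 26.0% and 22.6% of all genes. With VP64-MyoD 2 were higher and 7 lower (median -0.46), against 33.3% and 30.3% of all genes. Of 7 inhibitors of S-phase entry, 4 were higher and 2 lower with WT-MyoD than untreated, against 26.0% and 22.6% of all genes. Their log2 fold changes with WT-MyoD ran from -1.65 to 1.43. With VP64-MyoD 1 was higher and 2 lower than untreated, against 33.3% and 30.3% of all genes. Against WT-MyoD, 2 were higher and 3 lower with VP64-MyoD (median log2 difference -0.19), against 28.7% and 28.4% of all genes. In that direct comparison 2 were over 2-fold higher, against 7.63% of all genes, and 2 over 2-fold lower, as were 1040 of the 15288 genes tested. CDKN1C, the cyclin-dependent kinase inhibitor p57, was named from that list after its values were seen. It was at 2.10 and 2.24 CPM in untreated libraries, 6.04 and 5.58 CPM with WT-MyoD and 150 and 134 CPM with VP64-MyoD, and was higher with VP64-MyoD than WT-MyoD (log2 4.61 ± 0.09 SE, adjusted p 5.5e-15). CDKN1A (p21), a target of MyoD in differentiating myoblasts, was at 579 and 562 CPM in untreated libraries, 707 and 702 CPM with WT-MyoD and 638 and 575 CPM with VP64-MyoD, and was lower with VP64-MyoD than WT-MyoD (log2 -0.22 ± 0.07 SE, adjusted p 0.014). The summed levels of 5 blood markers, most of it CD68, were 67.8 to 69.3, 177 to 180 and 45.3 to 47.2 CPM in the same order of groups, with CD3E at 0 in every library, and those of 4 melanocyte markers stayed at or under 1.28 CPM with TYR at 0. Endothelial (5 genes) and keratinocyte (5 genes) sums lay between 8.22 and 11.7 CPM and between 4.36 and 8.65 CPM. The part of any of these in the replication gene levels was not tested. Library totals ran from 40997586 to 53804224 counts, and normalization factors from 0.914 to 1.07.

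The 4 origin licensing genes, which mark and load origins in G1, all rose in both MyoD groups, against 17.8% of all genes. Their median log2 fold changes were 2.28 with WT-MyoD and 1.72 with VP64-MyoD, and shares of 4 genes are imprecise. ORC1, the subunit of the origin recognition complex that is itself made and destroyed with the cell cycle, stood at 0.565 and 0.595 CPM in untreated libraries, 5.54 and 4.94 CPM with WT-MyoD and 3.64 and 3.23 CPM with VP64-MyoD. Both MyoD groups lay far above untreated without overlap, and VP64-MyoD lay below WT-MyoD. ORC1 was 9.04-fold higher with WT-MyoD (log2 3.18 ± 0.21 SE, adjusted p 2.8e-09) and 5.90-fold higher with VP64-MyoD (log2 2.56 ± 0.22 SE, adjusted p 5.1e-08). The difference between the MyoD groups was -0.62 on the log2 scale (adjusted p 0.0041), and this call was lost when only its largest transcript row was used (-0.33, adjusted p 0.271) and without VP64-MyoD replicate 2 (adjusted p 0.0514).

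CDC6, the ATPase that joins the origin recognition complex to load MCM rings, was at 1.66 and 2.20 CPM in untreated libraries, 11.3 and 11.5 CPM with WT-MyoD and 8.40 and 8.69 CPM with VP64-MyoD. Its 3 groups did not overlap, with WT-MyoD highest. The rise was 5.93-fold with WT-MyoD (log2 2.57 ± 0.14 SE, adjusted p 3.9e-10) and 4.46-fold with VP64-MyoD (log2 2.16 ± 0.15 SE, adjusted p 3.4e-09). CDT1, the loading factor that geminin holds back and whose promoter is shown above, was at 2.22 and 2.70 CPM in untreated libraries, 9.95 and 9.54 CPM with WT-MyoD and 5.89 and 5.88 CPM with VP64-MyoD. The order was the same, and CDT1 rose 3.98-fold and 2.40-fold over untreated. VP64-MyoD was lower than WT-MyoD by edgeR for CDT1 (log2 -0.73 ± 0.13 SE, adjusted p 0.00014) and CDC6 (log2 -0.41 ± 0.12 SE, adjusted p 0.0087); the CDC6 call was lost without VP64-MyoD replicate 1 (adjusted p 0.0578). ORC6, the smallest subunit of the origin recognition complex, rose by 1.57 and 1.28 on the log2 scale and did not pass between the MyoD groups.

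All 13 genes of the CMG helicase and its loading rose in both MyoD groups, against 17.8% of all genes called higher in both. Their medians were 1.63 with WT-MyoD and 1.48 with VP64-MyoD on the log2 scale. Among MCM2 to MCM7, the 6 subunits of the ring, 5 moved in 1 order, with WT-MyoD highest, VP64-MyoD between and untreated lowest. MCM2 was at 11.2 and 9.10 CPM in untreated libraries, 39.4 and 38.8 CPM with WT-MyoD and 24.9 and 23.6 CPM with VP64-MyoD, and the log2 fold changes over untreated were 1.94 with WT-MyoD and 1.25 with VP64-MyoD. MCM3, MCM4 and MCM5 rose by 1.45, 1.47 and 1.63 with WT-MyoD. With VP64-MyoD the log2 fold changes of MCM3, MCM4 and MCM5 were 0.77, 0.92 and 0.96, and each of the 3 was lower than with WT-MyoD (-0.67, -0.55 and -0.66). MCM7 rose by 0.72 and 0.38 and was also lower with VP64-MyoD than WT-MyoD (-0.34, adjusted p 0.00045). MCM7 shares 392 exonic bases with AP4M1 on the opposite strand. AP4M1 itself did not pass in any of the 3 comparisons. MCM2 shares 1113 exonic bases with an antisense gene, so its counts are uncertain.

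MCM6, the remaining ring subunit, was at 49.3 and 46.5 CPM in untreated libraries, 64.98 and 61.3 CPM with WT-MyoD and 68.8 and 73.99 CPM with VP64-MyoD. Its groups did not overlap, and here VP64-MyoD was highest. It rose 1.32-fold with WT-MyoD (log2 0.40 ± 0.07 SE, adjusted p 0.00016) and 1.49-fold with VP64-MyoD (log2 0.58 ± 0.07 SE, adjusted p 2.3e-06). The difference between the MyoD groups was 0.18 (adjusted p 0.036 in edgeR), and this call was lost with DESeq2 (adjusted p 0.0709), when only these 2 groups were fitted (adjusted p 0.0621) and when any library other than WT-MyoD replicate 1 was left out.

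Since the ring holds its 6 subunits in equal number, their RNA levels were also compared per transcript length, in CPM per kilobase. In untreated cells MCM6 was highest at 12.8 and MCM2 lowest at 2.80 CPM per kilobase, a ratio of 4.58. With WT-MyoD the range ran from 10.8 for MCM2 to 28.5 for MCM4, a ratio of 2.64, and MCM6 stood behind MCM4, MCM3 and MCM7. With VP64-MyoD it ran from 6.69 for MCM2 to 19.4 for MCM4, a ratio of 2.91. This order of MCM6 was the same in both untreated and in both WT-MyoD libraries. In the VP64-MyoD libraries MCM6 was below MCM4 in replicate 1 and above it in replicate 2, so these were not separated there. MCM2 was lowest in every library.

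**Figure D2:**
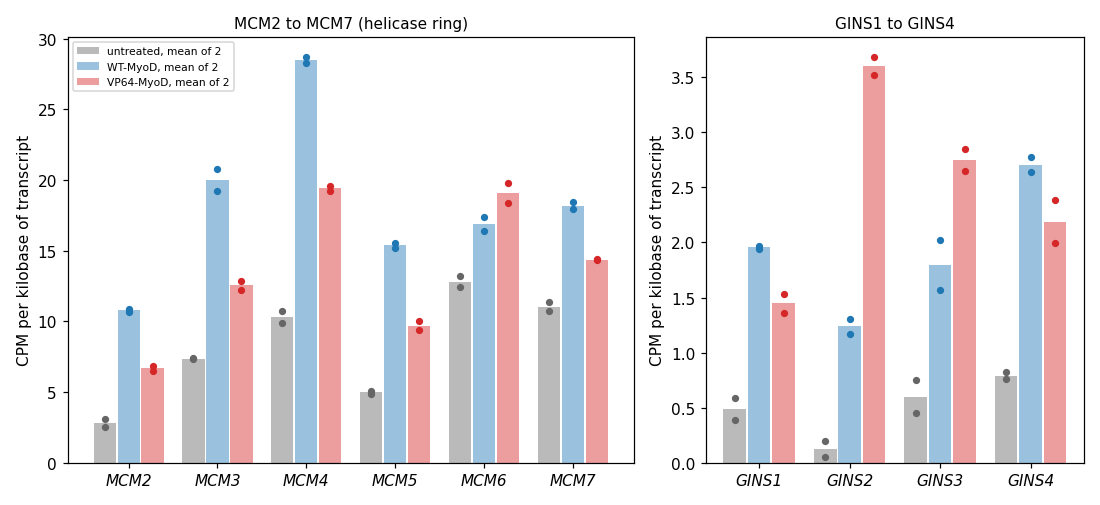
Levels of MCM2 to MCM7 and of GINS1 to GINS4 in each library in CPM per kilobase of transcript, by group. The MCM subunits spread 4.58-fold in untreated cells and 2.64-fold with WT-MyoD; GINS2 is the lowest GINS gene in untreated and WT-MyoD libraries and the highest with VP64-MyoD.

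GINS2 had the largest change over untreated of the 48 members with VP64-MyoD, though not with WT-MyoD, where E2F8 and E2F2 rose more. GINS2 encodes 1 of the 4 subunits of the GINS complex, which bridges CDC45 and the MCM ring. Its level was 0.525 and 0.137 CPM in untreated libraries, 3.48 and 3.13 CPM with WT-MyoD and 9.40 and 9.84 CPM with VP64-MyoD. The untreated values rest on 26 and 6 counts (all counts in the table are even, as when both reads of a pair are counted), the WT-MyoD values on 196 and 128 and the VP64-MyoD values on 434 and 512. GINS2 was 9.65-fold higher with WT-MyoD (log2 3.27 ± 0.30 SE, adjusted p 1.6e-07) and 27.9-fold higher with VP64-MyoD (log2 4.80 ± 0.27 SE, adjusted p 2.8e-10). These folds depend on the low untreated counts: leaving out untreated replicate 1 gave 23.7 and 68.7, and leaving out untreated replicate 2 gave 6.34 and 18.3. Without untreated replicate 2 the log2 fold change of GINS2 with VP64-MyoD was 4.19, under the 4.22 of E2F8. VP64-MyoD exceeded WT-MyoD by 2.90-fold (log2 1.53 ± 0.19 SE, adjusted p 3.9e-06), and this difference was called in all 16 alternative analyses, with log2 values from 1.45 to 1.62 when a library was left out.

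GINS3 was the other GINS gene that was higher with VP64-MyoD. It was at 1.45 and 0.869 CPM in untreated libraries, 3.91 and 3.03 CPM with WT-MyoD and 5.50 and 5.11 CPM with VP64-MyoD, with no overlap between groups. It rose 2.98-fold (log2 1.57 ± 0.23 SE, adjusted p 2.9e-05) and 4.51-fold (log2 2.17 ± 0.22 SE, adjusted p 3.9e-07) over untreated. The difference between the MyoD groups was 0.60 (adjusted p 0.013) and was lost without WT-MyoD replicate 2 (0.42, adjusted p 0.0814), without VP64-MyoD replicate 1 (0.55, adjusted p 0.073) and on the largest transcript row alone (0.51, adjusted p 0.115). GINS1 and GINS4 went the other way, with log2 differences of VP64-MyoD from WT-MyoD by edgeR of -0.44 (adjusted p 0.030) and -0.30 (adjusted p 0.043). Both calls were lost with DESeq2 (adjusted p 0.0654 and 0.089). The GINS1 call was also lost without WT-MyoD replicate 1 or VP64-MyoD replicate 2. The GINS4 call was also lost with upper-quartile factors in edgeR (adjusted p 0.0513). Leaving out untreated replicate 1, WT-MyoD replicate 2 or VP64-MyoD replicate 1 ended it too. Over untreated, GINS1 rose by 2.01 and 1.58 and GINS4 by 1.78 and 1.48. GINS3 shares 558 exonic bases and GINS4 shares 1159 with an antisense gene on the opposite strand, so their counts are uncertain.

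Per kilobase, GINS2 was the lowest of the 4 GINS genes in untreated cells (0.124, against 0.789 for GINS4) and with WT-MyoD (1.24, against 2.71 for GINS4). With VP64-MyoD it was the highest at 3.60, and GINS1 was lowest at 1.45 CPM per kilobase. The VP64-MyoD order, GINS2 over GINS3 over GINS4 over GINS1, was the same in both libraries. GINS1 and GINS3 changed places between the libraries of the other groups.

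The remaining 3 genes of the helicase group rose in both MyoD groups and did not pass between them. MCM10, which stabilises the new CMG helicase and helps it fire, was at 0.727 and 0.961 CPM in untreated libraries, 6.64 and 6.27 CPM with WT-MyoD and 5.59 and 5.77 CPM with VP64-MyoD. Both MyoD groups lay well above untreated, at 7.69-fold (log2 2.94 ± 0.18 SE, adjusted p 1.3e-09) and 6.76-fold (log2 2.76 ± 0.18 SE, adjusted p 2.6e-09). The difference between the MyoD groups was -0.19 (adjusted p 0.27). CDC45, the helicase cofactor, rose by 2.61 and 2.50, and CDC7, the kinase that triggers origins, by 1.58 and 1.63.

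**Figure D3:**
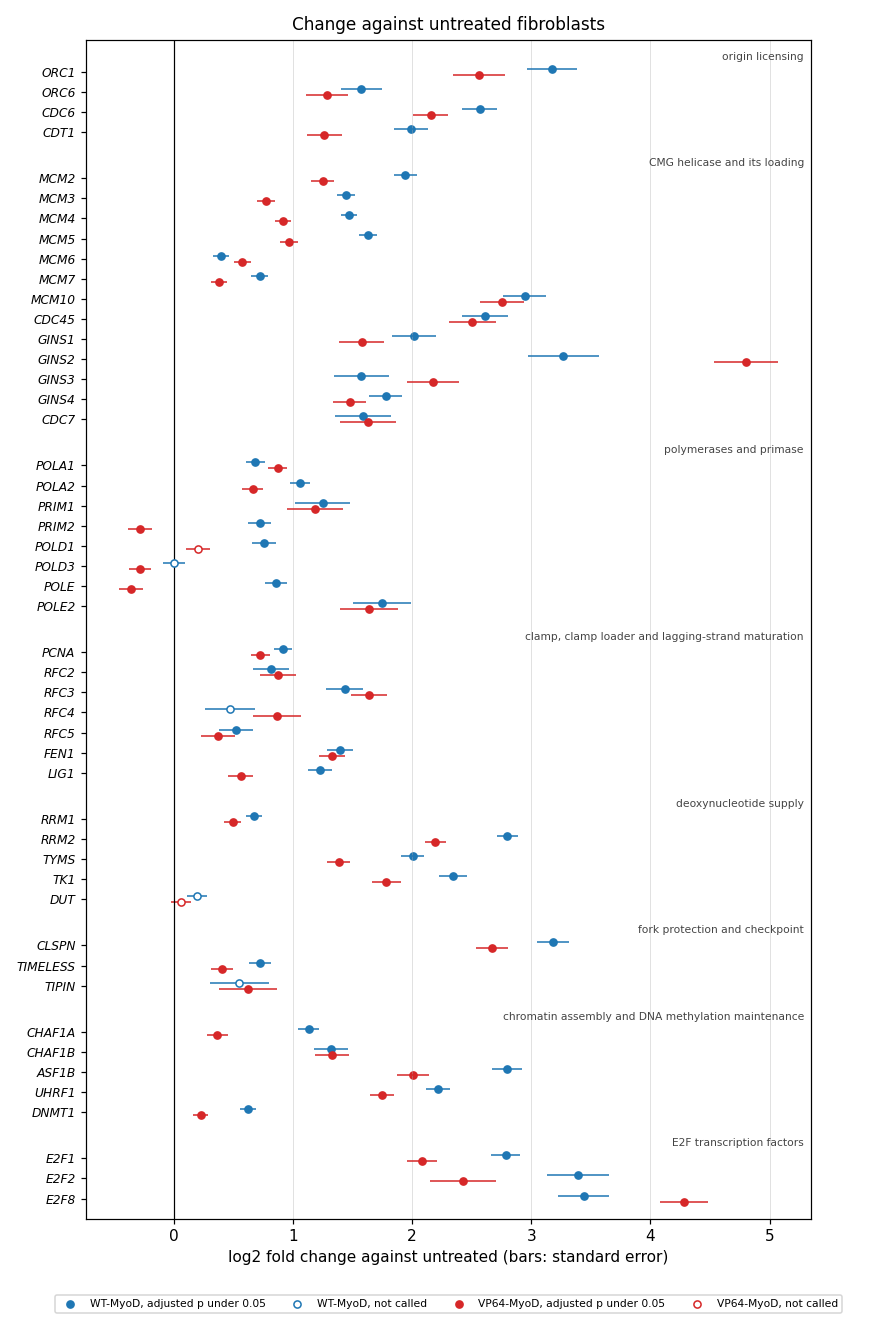
Log2 fold change of each of the 48 replication genes over untreated, by edgeR, with bars of 1 standard error, in blue for WT-MyoD and red for VP64-MyoD; open points did not pass at an adjusted p of 0.05. GINS2 with VP64-MyoD lies farthest right at 4.80, and POLE, PRIM2 and POLD3 with VP64-MyoD lie left of 0.

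Of the 8 polymerase and primase genes, 7 rose with WT-MyoD (median log2 fold change 0.81), against 26.0% of all genes. With VP64-MyoD 4 of the 8 rose and 3 fell (median 0.43), against 33.3% higher and 30.3% lower of all genes (median 0.03). Shares of 8 genes are imprecise. Of the 3 falls, those of PRIM2 and POLD3 were lost when some single libraries were left out. POLE encodes the catalytic subunit of polymerase epsilon, which makes the leading strand. POLE was at 21.96 and 23.1 CPM in untreated libraries, 36.3 and 45.4 CPM with WT-MyoD and 17.6 and 17.5 CPM with VP64-MyoD. The 3 groups did not overlap, and VP64-MyoD was lowest. It rose 1.81-fold with WT-MyoD (log2 0.86 ± 0.10 SE, adjusted p 1.7e-06) and fell 1.28-fold with VP64-MyoD (log2 -0.36 ± 0.10 SE, adjusted p 0.0053). The direct difference, 2.32-fold lower with VP64-MyoD (log2 -1.22 ± 0.10 SE, adjusted p 3.6e-08), was the largest decrease among the 48 members. POLE2, its accessory subunit, was at 0.727 and 0.640 CPM in untreated libraries, 2.31 and 2.30 CPM with WT-MyoD and 2.21 and 2.08 CPM with VP64-MyoD. Both MyoD groups were above untreated for POLE2 (log2 1.75 ± 0.24 SE, adjusted p 2.0e-05 with WT-MyoD and log2 1.64 ± 0.25 SE, adjusted p 2.8e-05 with VP64-MyoD) and did not pass against each other.

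PRIM2, the large subunit of primase, had the next largest decrease. PRIM2 stood at 11.6 and 10.7 CPM in untreated libraries, 17.9 and 18.99 CPM with WT-MyoD and 9.01 and 9.34 CPM with VP64-MyoD, again with VP64-MyoD lowest and no overlap. It rose 1.65-fold with WT-MyoD (log2 0.72 ± 0.10 SE, adjusted p 1.0e-05) and was 1.22-fold lower than untreated with VP64-MyoD (log2 -0.29 ± 0.10 SE, adjusted p 0.020). The fall below untreated was lost when untreated replicate 1 or either VP64-MyoD library was left out (adjusted p 0.0597 to 0.138). Against WT-MyoD, PRIM2 was 2.01-fold lower with VP64-MyoD (log2 -1.01 ± 0.10 SE, adjusted p 2.9e-07). PRIM1, the catalytic subunit of primase, was at 1.21 and 2.20 CPM in untreated libraries, 4.09 and 3.92 CPM with WT-MyoD and 3.38 and 4.27 CPM with VP64-MyoD. It rose in both MyoD groups (log2 1.25 ± 0.23 SE, adjusted p 0.00032 with WT-MyoD and log2 1.18 ± 0.23 SE, adjusted p 0.00036 with VP64-MyoD), which overlapped each other and did not pass against each other. PRIM1 shares 132 exonic bases with HSD17B6 on the opposite strand, whose log2 fold changes were 0.98 and 3.86, and the libraries do not mark strand.

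Of polymerase delta, POLD1, the catalytic subunit, was at 8.36 and 8.19 CPM in untreated libraries, 13.9 and 14.1 CPM with WT-MyoD and 9.70 and 9.34 CPM with VP64-MyoD. WT-MyoD lay above both other groups (log2 0.76 ± 0.10 SE, adjusted p 1.1e-05 over untreated). VP64-MyoD was 0.20 from untreated, which did not pass (adjusted p 0.097), and below WT-MyoD by edgeR (log2 -0.55 ± 0.10 SE, adjusted p 0.00018). POLD3, an accessory subunit, was at 17.2 and 19.3 CPM in untreated libraries, 18.9 and 17.6 CPM with WT-MyoD and 14.9 and 14.998 CPM with VP64-MyoD. Untreated and WT-MyoD libraries overlapped (log2 0.00 ± 0.09 SE, adjusted p 0.98), and VP64-MyoD lay below both (log2 -0.28 ± 0.09 SE, adjusted p 0.013 against untreated). That fall was lost without untreated replicate 2 or either VP64-MyoD library (adjusted p 0.0619 to 0.154). POLA1 and POLA2, the catalytic and second subunits of polymerase alpha, rose by 0.68 and 1.06 with WT-MyoD and by 0.87 and 0.66 with VP64-MyoD. POLA2 was lower with VP64-MyoD than WT-MyoD (-0.39, adjusted p 0.00086), and POLA1 did not pass (adjusted p 0.058).

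Most genes of the clamp, its loader and the maturation enzymes rose in both MyoD groups without passing between them. Of 7, 6 rose with WT-MyoD (median 0.92) and all 7 with VP64-MyoD (median 0.87), against 26.0% and 33.3% of all genes. Between the MyoD groups 2 passed, PCNA and LIG1, both lower with VP64-MyoD, against 28.4% of all genes called lower. PCNA, the sliding clamp, was at 26.96 and 25.8 CPM in untreated libraries, 52.5 and 46.99 CPM with WT-MyoD and 42.3 and 45.1 CPM with VP64-MyoD, and rose by 0.92 and 0.73 on the log2 scale. Its difference between the MyoD groups (-0.19, adjusted p 0.043) was lost in 9 of 16 alternatives, DESeq2 among them (adjusted p 0.0599). RFC3, a subunit of the clamp loader, was at 3.23 and 3.66 CPM in untreated libraries, 10.5 and 7.93 CPM with WT-MyoD and 10.05 and 11.3 CPM with VP64-MyoD, and rose 2.70-fold (log2 1.43 ± 0.15 SE, adjusted p 9.2e-07) and 3.11-fold (log2 1.64 ± 0.15 SE, adjusted p 1.3e-07). RFC4, another loader subunit, was at 1.90 and 1.46 CPM in untreated libraries, 2.42 and 2.25 CPM with WT-MyoD and 3.25 and 2.92 CPM with VP64-MyoD. All 4 MyoD libraries lay above untreated, but only VP64-MyoD passed (log2 0.87 ± 0.20 SE, adjusted p 0.0015), with 0.47 and an adjusted p of 0.075 for WT-MyoD, and the MyoD groups did not pass against each other (adjusted p 0.093). RFC2 rose by 0.82 and 0.88, and RFC5 by 0.52 and 0.37. The RFC5 call was lost without untreated replicate 2 or WT-MyoD replicate 1 for WT-MyoD (adjusted p 0.0618 and 0.123), and for VP64-MyoD with DESeq2 (0.0692) and without any 1 of the untreated or VP64-MyoD libraries. RFC5 shares 186 exonic bases with WSB2 and FEN1 shares 166 with TMEM258, each on the opposite strand, so their counts are uncertain.

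FEN1, the flap nuclease that trims lagging-strand fragments, was at 8.23 and 9.19 CPM in untreated libraries, 24.1 and 21.6 CPM with WT-MyoD and 20.01 and 23.7 CPM with VP64-MyoD. Both MyoD groups lay more than 2-fold above untreated (log2 1.39 ± 0.11 SE, adjusted p 1.8e-08 and log2 1.33 ± 0.11 SE, adjusted p 2.5e-08) and overlapped. LIG1, the ligase that seals those fragments, was at 7.47 and 7.59 CPM in untreated libraries, 17.02 and 18.2 CPM with WT-MyoD and 11.6 and 10.6 CPM with VP64-MyoD. VP64-MyoD lay between the other 2 groups for LIG1: the rise was 2.34-fold with WT-MyoD (log2 1.22 ± 0.10 SE, adjusted p 4.3e-08) and 1.47-fold with VP64-MyoD (log2 0.56 ± 0.10 SE, adjusted p 0.00021), and the direct difference passed (log2 -0.66 ± 0.10 SE, adjusted p 2.8e-05).

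Of 5 genes for deoxynucleotide supply, 4 rose in both MyoD groups, against 17.8% of all genes. The same 4 were lower with VP64-MyoD than WT-MyoD, against 28.4% of all genes. Shares of 5 genes are imprecise. RRM2, the S-phase subunit of ribonucleotide reductase, was at 6.58 and 6.63 CPM in untreated libraries, 44.1 and 48.02 CPM with WT-MyoD and 29.7 and 30.7 CPM with VP64-MyoD. Its replicates lay close together and the groups far apart. It rose 6.96-fold (log2 2.80 ± 0.09 SE, adjusted p 3.0e-13) and 4.57-fold (log2 2.19 ± 0.09 SE, adjusted p 4.3e-12), with the smallest adjusted p of any member, and its direct difference was -0.61 (adjusted p 5.3e-06). RRM1, the subunit present throughout the cycle, rose by 0.67 and 0.49, and its direct difference (-0.18) was lost without WT-MyoD replicate 1 or either VP64-MyoD library. TK1, the salvage kinase that phosphorylates thymidine, was at 4.68 and 3.84 CPM in untreated libraries, 22.8 and 20.6 CPM with WT-MyoD and 15.6 and 13.9 CPM with VP64-MyoD, and rose 5.08-fold (log2 2.35 ± 0.12 SE, adjusted p 1.0e-10) and 3.45-fold (log2 1.78 ± 0.12 SE, adjusted p 3.0e-09).

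TYMS, which makes thymidylate from deoxyuridylate, was at 11.4 and 11.02 CPM in untreated libraries, 48.4 and 41.6 CPM with WT-MyoD and 27.7 and 30.9 CPM with VP64-MyoD. It rose 4.01-fold (log2 2.01 ± 0.09 SE, adjusted p 4.3e-11) and 2.61-fold (log2 1.38 ± 0.10 SE, adjusted p 3.7e-09), and fell short of WT-MyoD with VP64-MyoD (log2 -0.62 ± 0.09 SE, adjusted p 1.8e-05). TYMS shares 967 exonic bases with ENOSF1 on the opposite strand, and ENOSF1 had smaller log2 fold changes of 0.82 and 0.55. DUT, which breaks down dUTP and so keeps uracil out of DNA, was at 24.1 and 25.5 CPM in untreated libraries, 30.2 and 26.5 CPM with WT-MyoD and 26.1 and 25.7 CPM with VP64-MyoD. It did not pass with WT-MyoD (log2 0.20 ± 0.08 SE, adjusted p 0.065), with VP64-MyoD (log2 0.06 ± 0.08 SE, adjusted p 0.54) or between them. Without WT-MyoD replicate 2 the DUT rise with WT-MyoD passed (0.30, adjusted p 0.00384). The annotation names pseudogenes for 7 members, with 8 for DUT, 3 each for PCNA and RRM2 and 2 for TYMS. Reads shared with these pseudogenes are uncertain. DUT also shares 533 exonic bases with an antisense gene on the opposite strand.

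Of the 3 fork protection genes, 2 rose with WT-MyoD and all 3 with VP64-MyoD, against 26.0% and 33.3% of all genes. Shares of 3 genes are imprecise. CLSPN encodes claspin, which links the fork to the checkpoint kinase CHK1, and was at 3.07 and 2.61 CPM in untreated libraries, 23.2 and 28.7 CPM with WT-MyoD and 16.9 and 19.3 CPM with VP64-MyoD. It rose 9.08-fold (log2 3.18 ± 0.14 SE, adjusted p 1.2e-11) and 6.36-fold (log2 2.67 ± 0.14 SE, adjusted p 9.8e-11), with VP64-MyoD below WT-MyoD (log2 -0.51 ± 0.11 SE, adjusted p 0.00089). TIMELESS, which travels with the fork, was at 19.8 and 19.3 CPM in untreated libraries, 32.05 and 32.5 CPM with WT-MyoD and 23.5 and 28.3 CPM with VP64-MyoD, and rose by 0.72 (adjusted p 5.8e-06) and 0.41 (adjusted p 0.0011), the second of which was lost without VP64-MyoD replicate 2 (0.26, adjusted p 0.0518). TIPIN, the binding partner of TIMELESS, was at 1.37 and 1.14 CPM in untreated libraries, 1.88 and 1.81 CPM with WT-MyoD and 1.65 and 2.23 CPM with VP64-MyoD. Its MyoD groups overlapped. TIPIN did not pass by edgeR with WT-MyoD (log2 0.55 ± 0.25 SE, adjusted p 0.078) and passed narrowly with VP64-MyoD (log2 0.62 ± 0.24 SE, adjusted p 0.036). That call was lost with DESeq2 (adjusted p 0.0877), with limma-voom (adjusted p 0.0503) and with a replicate block. It was also lost when either untreated library or VP64-MyoD replicate 2 was left out (log2 0.38 without VP64-MyoD replicate 2).

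All 5 chromatin genes rose in both MyoD groups (medians 1.32 and 1.33), against 17.8% of all genes. Of the 5, 4 were lower with VP64-MyoD than WT-MyoD, against 28.4% of all genes, and shares of 5 genes are imprecise. ASF1B, the histone chaperone paired with S phase, was at 2.42 and 2.52 CPM in untreated libraries, 18.4 and 15.8 CPM with WT-MyoD and 10.1 and 9.77 CPM with VP64-MyoD. It rose 6.94-fold (log2 2.80 ± 0.13 SE, adjusted p 2.8e-11) and 4.02-fold (log2 2.01 ± 0.13 SE, adjusted p 2.0e-09), and its direct difference passed (log2 -0.79 ± 0.11 SE, adjusted p 1.3e-05). UHRF1, which reads hemimethylated DNA and brings DNMT1 to it, was at 9.57 and 8.64 CPM in untreated libraries, 38.3 and 46.7 CPM with WT-MyoD and 29.6 and 31.6 CPM with VP64-MyoD, and rose 4.65-fold (log2 2.22 ± 0.10 SE, adjusted p 4.0e-11) and 3.36-fold (log2 1.75 ± 0.10 SE, adjusted p 6.6e-10). DNMT1, the maintenance methyltransferase, changed less (0.62 and 0.22). The VP64-MyoD call of DNMT1 was lost without untreated replicate 2 or either VP64-MyoD library (adjusted p 0.0512 to 0.0781).

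The 2 large subunits of chromatin assembly factor 1 place new histones behind the fork, and both rose in both MyoD groups. CHAF1A was at 14.1 and 13.996 CPM in untreated libraries, 29.2 and 32.5 CPM with WT-MyoD and 17.4 and 18.8 CPM with VP64-MyoD, so VP64-MyoD lay nearer to untreated (0.37) than WT-MyoD did (1.13), with a direct difference of -0.77 (adjusted p 1.6e-06). CHAF1B was at 2.87 and 2.47 CPM in untreated libraries, 6.71 and 6.66 CPM with WT-MyoD and 6.67 and 6.77 CPM with VP64-MyoD. It rose by 1.32 and 1.33, and the MyoD groups did not pass against each other. The difference between CHAF1A and CHAF1B was not tested.

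The E2F genes had the highest median rise of any role, 3.39 with WT-MyoD and 2.43 with VP64-MyoD, from low untreated levels. E2F1, the activator released when the retinoblastoma protein is phosphorylated, was at 2.50 and 2.74 CPM in untreated libraries, 17.2 and 18.99 CPM with WT-MyoD and 11.3 and 10.96 CPM with VP64-MyoD, and rose 6.89-fold (log2 2.79 ± 0.12 SE, adjusted p 1.4e-11) and 4.24-fold (log2 2.08 ± 0.12 SE, adjusted p 5.5e-10). E2F2, a close relative of E2F1, was at 0.484 and 0.412 CPM in untreated libraries, 4.26 and 5.29 CPM with WT-MyoD and 2.04 and 2.81 CPM with VP64-MyoD. It rose 10.5-fold (log2 3.39 ± 0.26 SE, adjusted p 1.7e-08) and 5.38-fold (log2 2.43 ± 0.28 SE, adjusted p 1.5e-06), with VP64-MyoD lower by 1.95-fold (log2 -0.97 ± 0.20 SE, adjusted p 0.00067). E2F1 was likewise lower with VP64-MyoD than WT-MyoD (log2 -0.70 ± 0.10 SE, adjusted p 2.3e-05).

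E2F8, an atypical E2F that represses E2F targets late in S phase, went the other way. E2F8 was at 0.404 and 0.366 CPM in untreated libraries, 4.05 and 4.41 CPM with WT-MyoD and 7.62 and 7.50 CPM with VP64-MyoD. Its 3 groups did not overlap, with VP64-MyoD highest. It rose 10.9-fold with WT-MyoD (log2 3.44 ± 0.21 SE, adjusted p 1.3e-09) and 19.5-fold with VP64-MyoD (log2 4.28 ± 0.20 SE, adjusted p 3.2e-11), and the direct difference of 1.79-fold (log2 0.84 ± 0.14 SE, adjusted p 8.9e-05) was called in all 16 alternatives. Its partner E2F7, which is not a member, was at 5.45 and 4.85 CPM in untreated libraries, 17.2 and 19.7 CPM with WT-MyoD and 26.7 and 29.6 CPM with VP64-MyoD, and was also higher with VP64-MyoD than WT-MyoD (log2 0.61 ± 0.10 SE, adjusted p 5.3e-05).

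**Figure D4:**
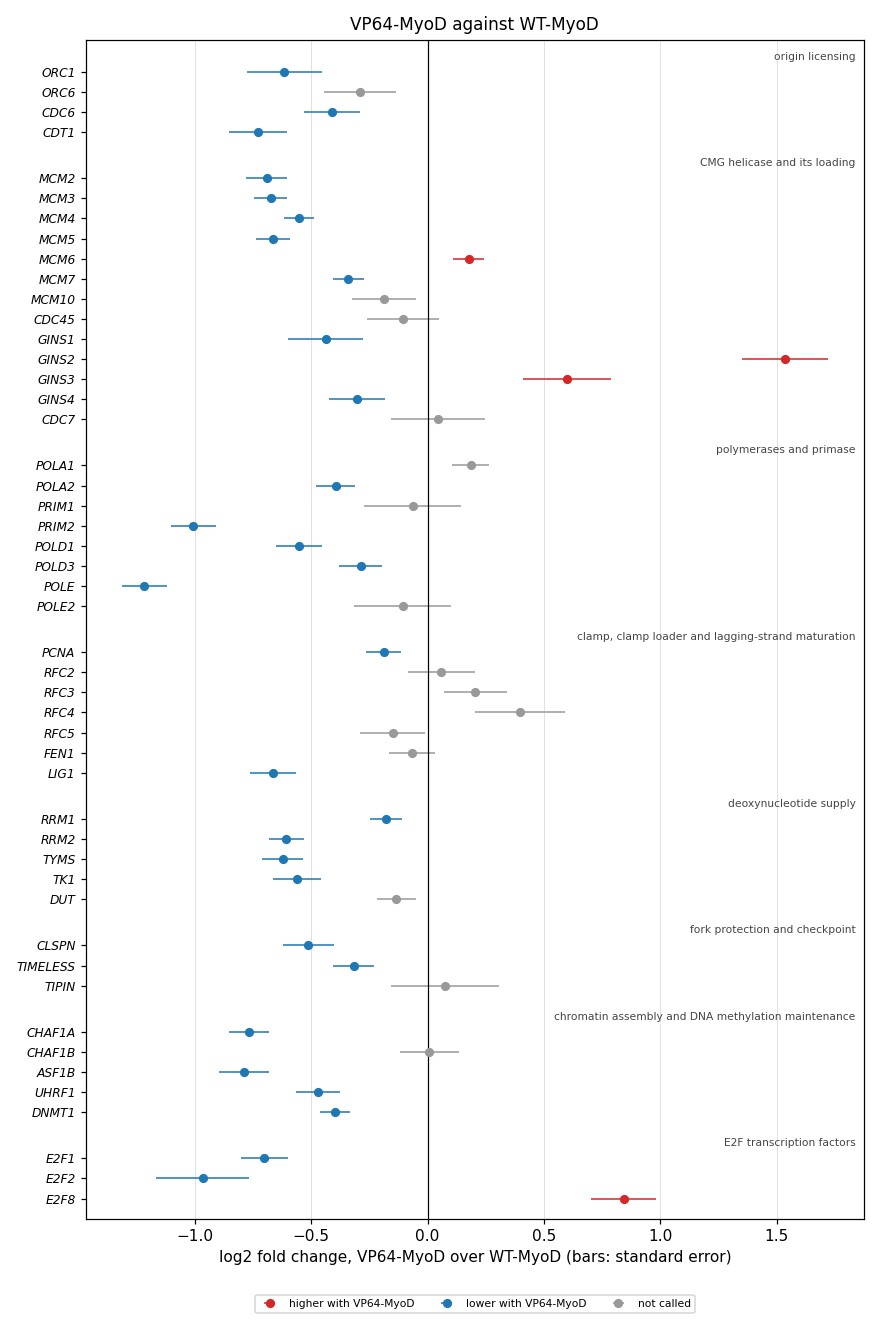
Log2 fold change of VP64-MyoD over WT-MyoD for the 48 replication genes by edgeR, with bars of 1 standard error. Red points were called higher with VP64-MyoD (4 genes), blue points lower (29 genes), and grey points were not called; GINS2 lies at 1.53 and POLE at -1.22.

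Members with a low untreated level had larger median fold changes. The 20 members under 3 CPM in untreated cells had median log2 fold changes of 2.29 with WT-MyoD and 2.04 with VP64-MyoD, and the 28 members at 3 CPM or more had medians of 0.99 and 0.70. The untreated level is also the denominator of these fold changes, so the values are a description. The 25 members with E2F letters had medians of 1.57 with WT-MyoD, 1.26 with VP64-MyoD and -0.40 between the MyoD groups, and the 18 with a promoter entry but no such letters had 1.28, 1.23 and -0.24. GINS2, MCM6 and POLE all hold the letters and moved differently between the MyoD groups.

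Other replication genes were listed by function, with earlier results of these data known, as were the 48 members. Their median changes were smaller than those of the members, and this contrast depends on the choice of lists. Of 54 such genes tested, 33 were higher and 6 lower with WT-MyoD (median 0.42), 34 were higher and 6 lower with VP64-MyoD (median 0.32), and 12 were higher and 17 lower with VP64-MyoD than WT-MyoD (median 0.01). Among all genes, 26.0% were higher and 22.6% lower in the comparison of WT-MyoD with untreated, 33.3% and 30.3% in that of VP64-MyoD with untreated, and 28.7% and 28.4% in the direct one, so the direct counts of these 54 genes lie near the background. The largest rises with WT-MyoD were those of the S-phase cyclins CCNE2, at 0.928 and 1.19 CPM in untreated libraries, 8.81 and 7.98 CPM with WT-MyoD and 4.63 and 5.23 CPM with VP64-MyoD (log2 fold change 3.00), and CCNA2, at 12.8 and 13.3 CPM in untreated libraries, 50.2 and 46.99 CPM with WT-MyoD and 33.9 and 34.1 CPM with VP64-MyoD (1.90). With VP64-MyoD, E2F7 (2.45) and CCNE2 (2.23) rose most. The genes that fell with WT-MyoD were MCMBP, which unloads MCM rings (-0.32), POLD4, a small subunit of polymerase delta (-0.48), RFC1 (-0.18), DSCC1 (-0.49), CHTF8 (-0.27) and ASF1A (-0.31). Those that fell with VP64-MyoD were MCMBP (-0.21), DSCC1 (-0.40), CHTF8 (-0.47), E2F4 (-0.37), RBL2 (-0.38) and NPAT, the activator of histone genes (-0.19). Leaving out 1 library ended the calls of RFC1, CHTF8 and ASF1A with WT-MyoD and of MCMBP, DSCC1 and NPAT with VP64-MyoD.

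Between the MyoD groups, POLD4 was at 31.7 and 31.3 CPM in untreated libraries, 22.3 and 22.8 CPM with WT-MyoD and 41.2 and 42.1 CPM with VP64-MyoD and was higher with VP64-MyoD (log2 0.89 ± 0.07 SE, adjusted p 3.9e-08), while the catalytic subunit POLD1 was lower. The others called higher with VP64-MyoD than WT-MyoD, beside E2F7, were ORC5 (0.33), DBF4 (0.35), POLE3 (0.49), POLE4 (0.49), RFC1 (0.25), RPA2 (0.30), CCNE1 (0.47), E2F3 (0.34), NASP (0.30) and ASF1A (0.44). Of these, ORC5, DBF4, RFC1, RPA2, CCNE1 and NASP were no longer called when 1 of some of the libraries was left out. The histone-fold subunits POLE3 and POLE4 of polymerase epsilon were thus called opposite to the catalytic subunit POLE. SAMHD1, which breaks down deoxynucleotides, was at 35.6 and 39.6 CPM in untreated libraries, 79.6 and 86.3 CPM with WT-MyoD and 35.3 and 30.6 CPM with VP64-MyoD and had the largest decrease with VP64-MyoD against WT-MyoD (log2 -1.33 ± 0.08 SE, adjusted p 1.5e-09). The pocket protein gene RBL1 followed with -0.87. In a list of 20 mitosis genes, all 20 were higher in both MyoD groups (medians 2.28 and 1.87), against 17.8% of all genes. With VP64-MyoD against WT-MyoD, 15 were lower and 0 higher (median -0.42), against 28.4% and 28.7% of all genes.

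The authors' deposited table lists 3135 transcripts, of which 40 belong to 28 members. In the authors' deposited table all 40 had log2 fold changes above 0 for both MyoD groups, as did 59.0% of its transcripts. The larger fold change was the one with WT-MyoD for 33 of the 40, against 44.4% of the transcripts above 0 in both. The authors' deposited table lists no transcript of 20 members, POLE, PRIM2 and POLD3 among them, so these counts depend on which transcripts it lists.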

How the data were processed

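The tools named in the submitters' processing notes are CASAVA, Bowtie 0.12.9 and DESeq 1.10.1, with hg19 as the build. The deposited table holds raw counts per RefSeq transcript for 6 libraries. All values are even, which is what counting both reads of each pair gives. A second table by the authors holds their log2 fold changes over untreated, per the file headers, and was only described. Among 40710 transcript rows, 39324 were named through a RefSeq table and 516 through GENCODE release 29, and 869 had no symbol. Rows of 1 gene were summed. Tagmentation libraries do not mark strand, so where genes on opposite strands overlap, their reads are mixed. Such exonic overlap was annotated for 17 of the 48 members, for 9 of them with a protein-coding gene.

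The 6 libraries entered 1 edgeR 4.0.16 fit in R 4.3.3 (TMM, filterByExpr with minimum count 10 and minimum total 15, two-sided quasi-likelihood test, 3 residual degrees of freedom), tested on simulated data. Benjamini-Hochberg adjusted p-values under 0.05 over 15288 genes and the transgene row were calls. The standard error (SE) was the size of the log2 fold change divided by the root of the F statistic. Lengths for 46 members came from GENCODE 29 transcripts. Alternatives were DESeq2 1.42.0, limma-voom (limma 3.58.1), other factors and filters, 2 groups alone, halved counts, the largest transcript row, a replicate block and leaving out each library.

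The members and lists were chosen with earlier results of these data known. By the rule, values in every library were given, per role, for the 2 members with the largest change with WT-MyoD, the 1 with the largest difference between MyoD groups, and every member called against most others or not called over untreated. Of the other replication genes, those called against most members and the 2 with the largest changes were named. MCM2, PCNA, CHAF1A, CHAF1B, E2F1, CDKN1A and CDKN1C were added after their values were seen.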

Additional observations from a re-analysis of the deposited data

How the results depend on the processing

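No called member changed direction in any of the 16 alternatives. Over these, the median member log2 fold change lay between 1.34 and 1.57 for WT-MyoD against untreated, between 1.17 and 1.28 for VP64-MyoD against untreated, and between -0.36 and -0.31 for VP64-MyoD against WT-MyoD. In these comparisons 1, 6 and 10 members lost their call in at least 1 alternative. When 1 library was left out, the members called were 43 to 45, 40 to 46 and 25 to 33 in the same order. The members called higher were 43 to 45, 39 to 43 and 2 to 5. The members called lower were 0 to 0, 1 to 3 and 23 to 30. Leaving out a library leaves 1 sample in its group, which is assumed to vary like the others, although the chi-square per degree of freedom between replicates was 3.49 in untreated, 13.8 in WT-MyoD and 6.02 in VP64-MyoD libraries.

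Values that crossed 0 belonged to members that were not called. POLD3 with WT-MyoD moved to -0.0067 with upper-quartile factors and ranged from -0.0814 to 0.0956 when 1 library was left out. DUT with VP64-MyoD moved to -0.10 on its largest transcript row. Uncalled members not named by the rule, such as CDC7 and RFC2 between the MyoD groups, were not checked for this. Among those checked between the MyoD groups, leaving out 1 library gave -0.246 to 0.0927 for PRIM1, -0.194 to 0.0513 for FEN1 and -0.169 to 0.271 for TIPIN. The cause was not tested.

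The replicate numbers did not pair the libraries: correlations of the deviations of same-numbered libraries were 0.0505, 0.00562 and -0.0207. With the replicate block, 44, 45 and 33 members were called in the 3 comparisons, and the 1 call that changed was TIPIN with VP64-MyoD (log2 fold change 0.62, adjusted p 0.0503).

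Precision is limited by 2 libraries per group and, for genes such as GINS2, E2F8 and E2F2 in untreated cells, by few read pairs.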
